A study of Mus musculus with 8 samples.

Results

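miR-21 and miR-21* are the guide and passenger strands cut from one microRNA (miRNA) hairpin. They were taken by their exact names (mmu-miR-21 and mmu-miR-21*) on a mouse miRNA array, and they make up 2 of the 611 mouse miRNAs on it, both of them among the 268 that could be tested. Both were selected on their difference between particle-exposed and vehicle-treated lungs in these same arrays. Their difference between the groups is therefore given as a description, without a p-value.

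Lung RNA came from female C57BL/6 Bom Tac mice that were dams, instilled through the trachea while pregnant. The 4 Printex 90 samples came from dams given that carbon black nanoparticle in nanopure water. They received 0.067 mg on each of 4 days of gestation (day 7, day 10, day 15 and day 18), or 0.268 mg in all. The 4 vehicle control samples came from dams given nanopure water, and all lungs were taken at weaning, 26 to 27 days after exposure. All dams in both groups had been pregnant and instilled. No label ties an array to its own dam, so the spread below is that between samples and may be technical. The 8 one-colour arrays shared 1 slide and 1 scan. Controls filled slide row 1 and exposed samples row 2, and these positions and the groups cannot be told apart.

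A miRNA hairpin is cut into a short duplex, of which one strand, the guide, is usually loaded into Argonaute and kept, while the passenger strand is mostly degraded. The guide finds target messenger RNAs mainly through its seed, the bases 2 to 8 from its 5′ end. miR-21 is abundant in many tissues, is made in macrophages, fibroblasts and epithelial cells, and is known for its induction in inflamed, injured and fibrotic lung. Known targets of miR-21 include the apoptosis regulator Pdcd4, the growth factor signalling brake Spry1 and the TGF-beta signalling inhibitor Smad7.

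The mature sequences show how the seeds of the 2 strands differ and which other miRNAs of the reference resemble the guide. Both members were matched by name to RefSeq (GRCm38.p6), where the guide is mmu-miR-21a-5p and the passenger mmu-miR-21a-3p. Each is written 5′ to 3′ with the seed in capitals.
mmu-miR-21a-5p: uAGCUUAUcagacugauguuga
mmu-miR-21a-3p: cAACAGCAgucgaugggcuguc
mmu-miR-21b: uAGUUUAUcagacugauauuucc
mmu-miR-21c: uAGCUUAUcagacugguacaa
The strands have different seeds, AGCUUAU for the guide and AACAGCA for the passenger. Among the 1738 mature mouse entries of that table, the guide's seed was shared with miR-21c, and the passenger's seed with no other entry. Relatives outside that table are not covered. miR-590-5p, a possible seed relative with a name of its own on the array, was detected on 0 arrays. The passenger is richer in G and C (59.1% of its bases) than the guide (36.4%).

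miR-21b and miR-21c come from other loci and are near copies of the guide. Counted from 1 at the guide's 5′ end, miR-21b differed from it at 4 of 22 positions (C4U, G18A, G21U and A22C), the first of them in the seed. miR-21c differed at 5 of 21 positions, all in its 3′ part (A16G, G18A, U19C, U20A and G21A). Neither has a probe name of its own on the array, and the files hold no probe sequences, so how far either adds to the miR-21 signal was not tested.

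Both strands come from the Mir21a hairpin of 92 bases, at chr11:86584067-86584158 on the minus strand of GRCm38.p6, a position taken from the reference and not from the array files. The hairpin lies inside the annotated span of Vmp1, a gene of autophagy, on the same strand. The guide occupies hairpin bases 18 to 39 and the passenger bases 56 to 77, with 16 bases between them. In the fold of lowest energy predicted by RNAfold, 19 of the guide's 22 bases paired with the passenger.

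Each array detected 248 to 283 of the mouse miRNAs, and 240 were detected on all 8. Printex 90 replicate 3 had the lowest 75th percentile of signal (580.8 intensity units against 628.4 to 804.7 on the other arrays) and the fewest detected miRNAs, and results are given with and without it where it moves them. Endothelial, mesenchymal, epithelial and leukocyte marker miRNAs were present on all arrays, except 1 of 7 epithelial markers that was not detected on every array. Of 6 striated and cardiac muscle markers, 3 were detected on all arrays and miR-208a and miR-499 on none. Of 3 neural markers, 1 was detected on all arrays and miR-9 and miR-124 on none.

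miR-21 was brighter on every Printex 90 array than on every control array once arrays were scaled. The signals below are the summed intensities of a miRNA's probes divided by the array's 75th percentile over the 240 miRNAs detected on all arrays, called relative signals. miR-21 measured 13.5, 13.7, 12.2 and 11.8 on vehicle control replicates 1 to 4, and 19.3, 19.3, 15.5 and 17.7 on Printex 90 replicates 1 to 4. The groups did not overlap, and Printex 90 replicate 3 was the lowest of its group. The group means were 17.96 ± 1.79 (SD, n = 4) after Printex 90 and 12.8 ± 0.932 (SD, n = 4) in controls, a 1.40-fold difference (log2 difference 0.49, SE 0.086). Without Printex 90 replicate 3 the log2 difference was 0.55, and with each other array left out it lay between 0.45 and 0.52.

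Separation of the groups for miR-21 depended on scaling. Before scaling, its summed intensity was 9323, 8706, 7678 and 9491 on the controls and 12161, 13901, 9022 and 12295 after Printex 90. Printex 90 replicate 3, the dimmest array as a whole, then fell among the controls, and the other 3 Printex 90 arrays lay above all of them. miR-21 gave 2.59% to 3.11% of all mouse miRNA signal on the control arrays and 3.30% to 4.54% on the Printex 90 arrays, again without overlap. With quantile normalization the groups overlapped (log2 difference 0.45). In bulk lung RNA, more cells that make miR-21 and more miR-21 per cell cannot be told apart.

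**Figure D1:**
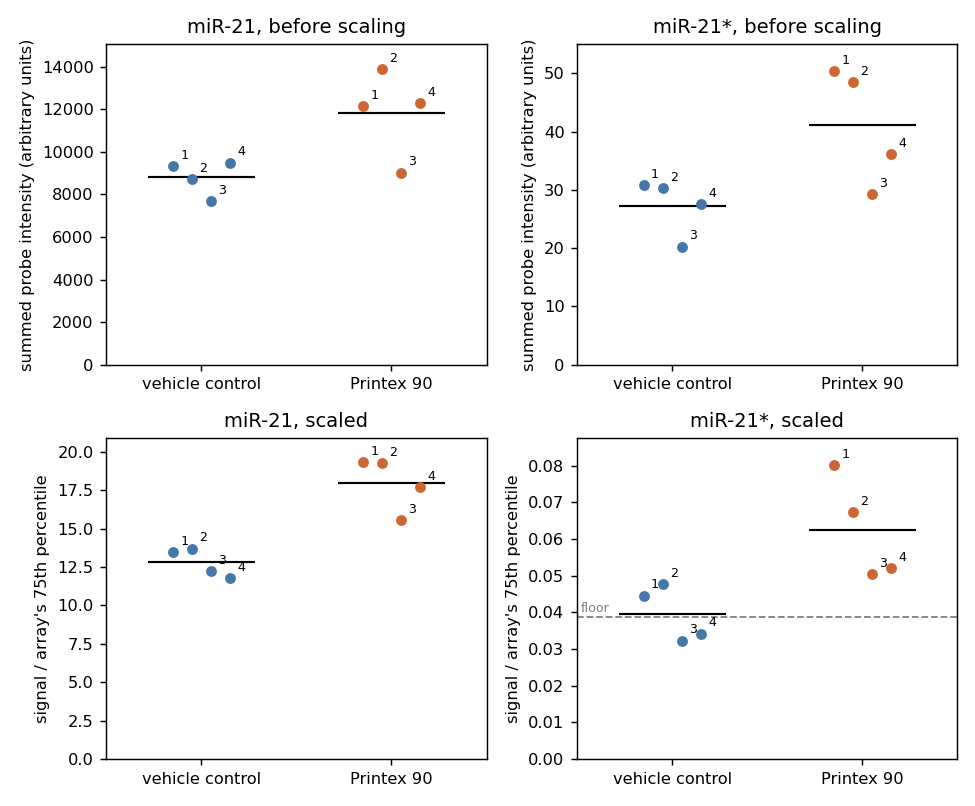
Summed intensity before scaling (upper panels) and signal relative to each array's 75th percentile (lower panels) for miR-21 (left) and miR-21* (right) on the 4 vehicle control and 4 Printex 90 arrays. Points are arrays labelled by replicate number, bars are group means, and the dashed line is the floor of 0.0388 used before log2; with this scaling all Printex 90 arrays lie above all controls for both strands (not so for miR-21 with quantile normalization, nor for miR-21* with total signal scaling, normexp or the authors' deposited table), while before scaling replicate 3 of Printex 90 lies among the controls.

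The 2 probes for miR-21 gave the same picture. Probe A_54_P1307 measured 5851 ± 547 intensity units in controls and 7904 ± 1313 after Printex 90 (SD, n = 4 each), before scaling. Probe A_54_P1308 measured 2949 ± 281 and 3940 ± 739. After scaling, the ratio of group means was 1.41 for the first and 1.39 for the second, and for each all 4 Printex 90 arrays lay above all controls. The first probe was 1.91 to 2.10 times as bright as the second on the 8 arrays, so the pair moved together from array to array.

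Each miR-21 probe had 10 spots on each array, and every kept spot was well above background. The spread over spots within an array was 3.97% to 8.34% of the mean for A_54_P1307 and 1.89% to 6.36% for A_54_P1308. Outlier flags removed 1 spot of A_54_P1307 on Printex 90 replicate 2 and 3 spots of A_54_P1308 on vehicle control replicate 4. Keeping those spots changed the log2 difference of the first probe from 0.49 to 0.49 and of the second from 0.47 to 0.48.

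miR-21*, the passenger strand, was close to the background of the array. It counted as detected on vehicle control replicate 4 and on all 4 Printex 90 arrays, so it met the filter of detection on at least 4 arrays mainly through the Printex 90 group. Its summed intensity over 4 probes was 30.8, 30.2, 20.3 and 27.5 on the controls and 50.4, 48.5, 29.3 and 36.1 after Printex 90. As relative signal, this was 0.0445, 0.0476, 0.0323 and 0.0342 on the controls and 0.0801, 0.0673, 0.0504 and 0.0520 after Printex 90. With this scaling the groups did not overlap, though vehicle control replicate 2 lay just under Printex 90 replicate 3. As a share of all mouse miRNA signal they did overlap, with vehicle control replicate 2 at 0.0108% and Printex 90 replicate 3 at 0.0107%. The groups also overlapped for miR-21* with normexp, the mean of probe log2 values, the scanner software's total gene signal on the floored scale and the authors' deposited table.

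Without a floor, miR-21* averaged 0.0625 ± 0.0140 after Printex 90 and 0.0396 ± 0.00757 in controls (SD, n = 4 each), a log2 difference of 0.65. With values floored at 0.0388, the 5th percentile of all detected signals, vehicle control replicates 3 and 4 were set to the floor and the log2 difference was 0.54 (SE 0.16). Without Printex 90 replicate 3 it was 0.63 on floored values. With the floor doubled it was 0.011, as only Printex 90 replicate 1 then lay above the floor.

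Of the 4 probes for miR-21*, only A_54_P3446 and A_54_P3447 had spots well above background. A_54_P3447, the brightest, measured 13.1, 16.3, 10.9 and 14.8 intensity units on the controls and 22.9, 22.0, 14.8 and 18.3 after Printex 90. It had 2, 2, 0 and 4 spots well above background on the control arrays and 5, 5, 4 and 5 on the Printex 90 arrays. After scaling, 3 of 4 Printex 90 arrays lay above all controls, and replicate 3 fell just short (0.0254 against 0.0257 on vehicle control replicate 2).

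A_54_P3446 measured 10.6, 9.31, 7.36 and 9.33 on the controls and 19.0, 17.9, 9.76 and 13.6 after Printex 90. It had 0, 0, 0 and 1 of 5 spots well above background on the control arrays and 5, 5, 0 and 2 on the Printex 90 arrays. After scaling all 4 Printex 90 arrays lay above all controls, but with most control spots not well above background no fold is given. A_54_P3444 and A_54_P3445 averaged 0.682 and 3.59 units in controls and 2.15 and 4.36 after Printex 90, with 0 spots well above background on any array.

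The negative control spots of the same arrays set the scale for these values. Their median was 1.46 to 2.35 units per array, in the range of the dimmer pair of miR-21* probes. One of the 7 negative control names, NC1_00000197, was bright on every array. Its median was 20.3 to 26.1 units on the controls and 17.2 to 24.8 on the Printex 90 arrays. On each array all 4 miR-21* probes lay below it, except that A_54_P3447 was brighter on Printex 90 replicate 1 (22.9 against 20.8). Whether the miR-21* signal is specific was not tested.

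**Figure D2:**
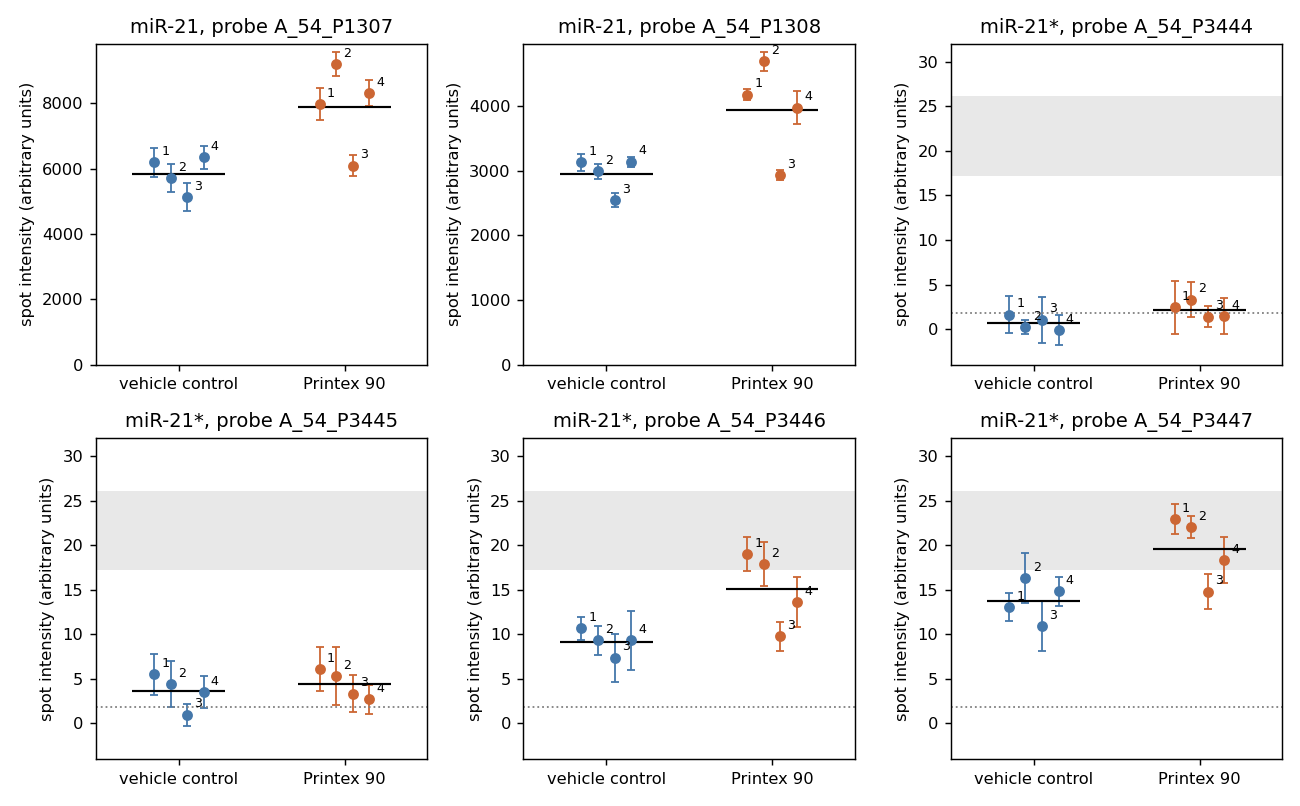
Mean spot intensity of each of the 2 miR-21 probes and 4 miR-21* probes by array, before scaling; error bars are the SD over the kept spots of an array, bars are group means, and numbers are replicates. In the miR-21* panels the dotted line is the typical median of the negative control spots and the grey band the range of the bright negative control NC1_00000197 (17.2 to 26.1); the upper pair of passenger probes reach this band on some Printex 90 arrays, and the other pair stay near the dotted line.

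The guide to passenger ratio asks whether the strands kept their balance, and it needs no scaling between arrays because both strands were read on the same array. It compares the brightness of different probes and is not a ratio of molecules, so only its differences between arrays are read. The summed miR-21 signal was 302.3, 287.9, 378.8 and 345.3 times the miR-21* signal on the controls and 241.3, 286.5, 308.4 and 340.5 times after Printex 90. The groups overlapped, with Printex 90 replicate 1 the lowest and vehicle control replicate 3 the highest.

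The mean ratio was 294.1 ± 41.7 after Printex 90 and 328.6 ± 41.4 in controls (SD, n = 4 each). The log2 ratio differed by -0.16 (SE 0.14), which is less than the SD of single arrays within either group (0.18 in controls and 0.21 after Printex 90). Without Printex 90 replicate 3 it differed by -0.19. With only the 2 brightest miR-21* probes it differed by -0.16, and with the negative control median subtracted from each probe by -0.32.

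The direction of the ratio difference depended on how the faint passenger signal was handled. The total gene signal of the scanner software, which for miR-21* fell to 3.33 to 7.44 units on the controls and 7.59 to 13.0 after Printex 90, gave -0.51. The groups did not overlap then, with ratios of 785.7 to 1412 on the controls and 580.8 to 769.4 after Printex 90. Normexp background correction, which adds an offset of 50 to each probe and so raises the faint strand most, gave 0.36. Values on the 4 Printex 90 arrays were then 33.9 to 49.1, against 29.6 to 35.0 on the controls. That offset exceeds the signal of every miR-21* probe and so shrinks the differences of that strand, and the sign under normexp cannot decide the direction. Without a floor or an offset, background-subtracted signals of all 8 arrays gave negative differences, from -0.15 with outlier spots kept to -0.51. The groups overlapped in each of these except the total gene signal. The size of the difference in strand balance was thus not settled by these arrays, nor was its direction.

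**Figure D3:**
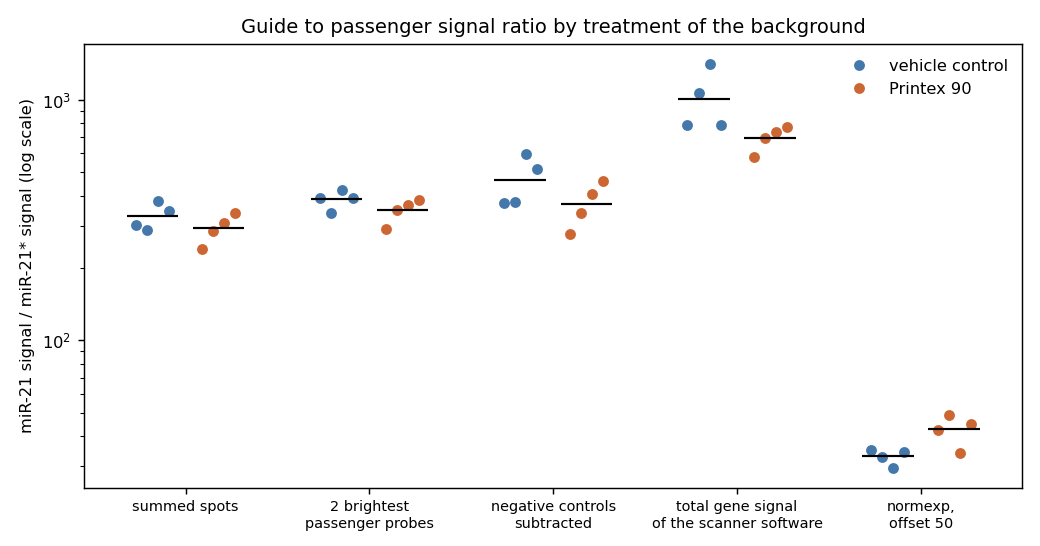
Ratio of miR-21 signal to miR-21* signal on a log scale under 5 treatments of the background, for 4 vehicle control (blue) and 4 Printex 90 (orange) arrays; points are arrays and bars are group means. The groups overlap with summed spots (241.3 to 340.5 after Printex 90, 287.9 to 378.8 in controls), and the higher group changes with normexp, where an offset of 50 per probe lowers every ratio.

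Over the whole array few miRNAs separated the groups. All 4 Printex 90 arrays lay above all 4 controls, on floored relative signals, for 3 of 268 tested miRNAs (1.12%), which were miR-21, miR-21* and miR-146b. Both members were chosen on this contrast, so nothing is read from that count. In the limma fit over all 268 miRNAs, 0 (0%) passed a Benjamini-Hochberg adjusted p of 0.05, neither member among them, while the unadjusted p was under 0.05 for 15 (5.6%). All Printex 90 arrays lay below all controls for 1 (0.373%). Without Printex 90 replicate 3, 3 miRNAs passed: miR-146b, miR-135b, which met the filter through the Printex 90 arrays alone, and miR-21, from which nothing is read since it was chosen on this contrast. The median log2 difference of all tested miRNAs was -0.05, with 85 higher and 176 lower after Printex 90.

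**Figure D4:**
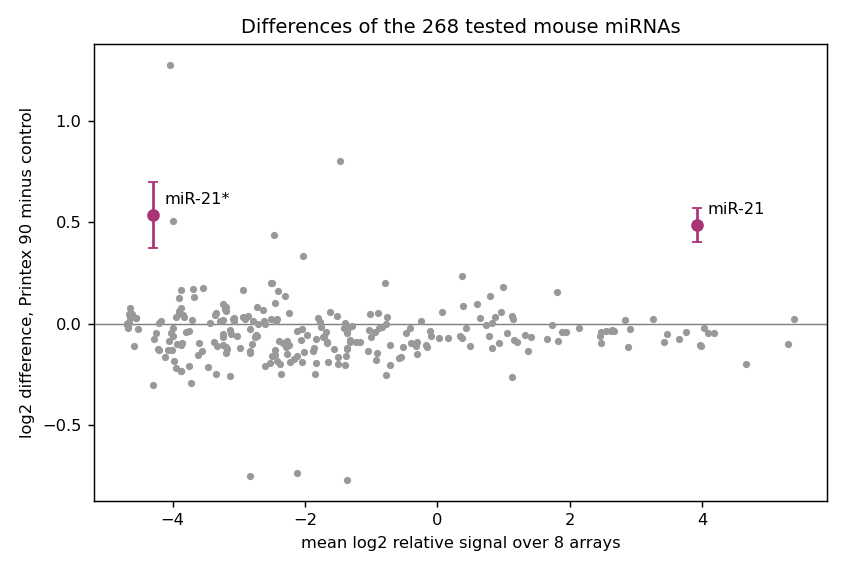
Log2 difference (Printex 90 minus vehicle control) against mean log2 relative signal for the 268 tested mouse miRNAs, each a grey point, with miR-21 and miR-21* in purple with the SE of the fit. The members lie at 0.49 and 0.54, above a median of -0.05 for all tested, at opposite ends of the brightness range.

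Among strand pairs on the array, 39 had both strands tested. The miR-21 pair was 1 of 5 in which both strands were higher after Printex 90, while both were lower in 16 and they differed in sign in 16. In the other 2 pairs a strand had a difference of 0. It was the 1 pair in which both strands had all Printex 90 arrays above all controls, but both were chosen for that difference and miR-21* met the filter mainly through the Printex 90 arrays, so its place among the pairs is a description. The miR-21 pair is not among the 25 pairs detected on all 8 arrays.

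The miRNAs whose level followed miR-21 most closely over the 8 arrays were miR-146b, miR-155, miR-31, miR-148a and miR-7a. Likeness was the Pearson correlation of log2 relative signal over the 8 arrays, among the 239 other miRNAs detected on all of them. The arrays share a slide and each value shares its array's scaling, so the correlations are descriptions. They were 0.97, 0.90, 0.89, 0.83 and 0.79, where the median of all 239 was -0.18. A difference between the groups alone gives such a correlation, so it was also taken with each group's mean removed, where the median of all was 0.06.

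With group means removed, miR-146b (0.91) and miR-155 (0.90) were still the closest, followed by miR-667 (0.83), miR-1894-3p (0.82) and miR-16* (0.78). Without Printex 90 replicate 3, these 5 had correlations of 0.82, 0.81, 0.70, 0.83 and 0.75. Without the 2 arrays farthest from the median of miR-21, they were 0.63, 0.73, 0.58, 0.72 and 0.48. In both cases the group means were those taken before arrays were left out, so part of the group difference can return. miR-667 and miR-16* had correlations of -0.14 and -0.06 over the 8 arrays with the group means kept. Conversely, miR-31, miR-148a and miR-7a had correlations of 0.75, 0.43 and 0.48 with group means removed.

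miR-146b, whose family restrains innate immune signalling, measured 0.295, 0.299, 0.280 and 0.224 on the controls and 0.605, 0.517, 0.323 and 0.507 after Printex 90. The groups did not overlap, and replicate 3 was again the lowest Printex 90 array. miR-155, which activated immune cells make, measured 0.0517, 0.0680, 0.0475 and 0.0458 on the controls and 0.0948, 0.0782, 0.0547 and 0.0765 after Printex 90. Only Printex 90 replicate 3 overlapped the controls. miR-31, an epithelial miRNA, measured 0.189 ± 0.0145 after Printex 90 and 0.164 ± 0.00968 in controls, miR-148a 0.621 ± 0.0436 and 0.541 ± 0.0273, and miR-7a 0.0724 ± 0.00611 and 0.0644 ± 0.00277 (SD, n = 4 each). All these miRNAs were picked by likeness to miR-21, which was chosen on the group contrast. Nothing is therefore read from how far they separate the groups.

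**Figure D5:**
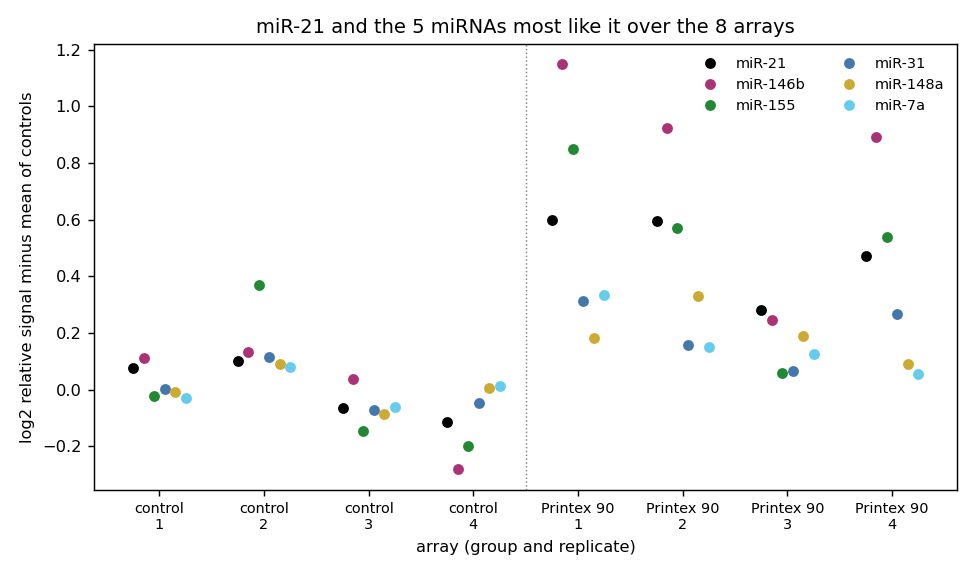
Log2 relative signal minus the mean of the controls on each of the 8 arrays for miR-21 (black) and the 5 miRNAs with the highest correlation with it, each point 1 array. miR-21, miR-146b and miR-155 are each lowest within the Printex 90 group on replicate 3.

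Other miRNAs known to respond to inflammation or injury were read from a list of 14, of which 10 were tested. The list was chosen with earlier results of these data known, so its counts and median are a description. After Printex 90, 7 were higher and 3 lower. The list median was 0.12 on the log2 scale, against -0.05 over all tested. By limma 0 passed after adjustment, and for 3 the unadjusted p was under 0.05. Over all 268 tested it was under 0.05 for 15 (5.6%), and 85 were higher. Without Printex 90 replicate 3 the median was 0.04. The 3 with the smallest p were miR-146b (0.80, SE 0.20), miR-135b (1.28, SE 0.42) and miR-155 (0.50, SE 0.19). miR-135b was not well above background in any control and was detected on the 4 Printex 90 arrays, so it passed the filter through that group alone, and its difference is against controls set to the floor. Printex 90 replicate 3 (0.0382) was also set to the floor of 0.0388. Without the floor, all Printex 90 arrays (0.0382 to 0.165) lay above all controls (0.00414 to 0.00730), from which nothing is read. miR-146a, the close relative of miR-146b, differed by 0.24 (SE 0.12). miR-223, of neutrophils and macrophages, differed by 0.18 (SE 0.21) and measured 3.21 on Printex 90 replicate 3 against 1.70 to 1.93 on the other Printex 90 arrays. That array thus had the lowest miR-21 and the highest miR-223 of its group.

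miRNAs linked to fibrosis or TGF-beta signalling lay near the median of the array. This list, too, was chosen with earlier results of these data known. Of 26 listed, 25 were tested, with 6 higher and 19 lower after Printex 90. Over all 268 tested, 85 were higher and 176 lower. The median log2 difference was -0.04 against -0.05 over all tested, and it was 0.01 with the 75th percentile over all mouse miRNAs and 0.003 with normexp. By limma 0 passed after adjustment, and for 1 the unadjusted p was under 0.05, against 15 (5.6%) of all 268 tested. The 3 with the smallest p were miR-31 (0.20, SE 0.067), miR-101a (-0.12, SE 0.050) and miR-199b* (-0.09, SE 0.053). The collagen repressors miR-29a, miR-29b and miR-29c differed by -0.02, 0.02 and -0.03.

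The summed signal of marker miRNAs of white blood cells, which can carry miR-21, overlapped between the groups. All 7 leukocyte markers were detected on all arrays, and their summed relative signal was 8.24 to 10.4 on the controls and 8.97 to 10.1 after Printex 90, the highest Printex 90 value being that of replicate 3. miR-142-3p, found in all blood cell lineages, measured 4.43 ± 0.418 in controls and 4.37 ± 0.332 after Printex 90, and so weighs most in that sum. Single leukocyte markers differed from each other. The log2 difference was 0.50 for miR-155 (SE 0.19), 0.24 for miR-146a (SE 0.12), 0.18 for miR-223 (SE 0.21) and -0.02 for miR-142-3p (SE 0.081). The 3 red blood cell markers summed to 19.7 to 46.9 and 21.7 to 30.6, with miR-451 at 28.5 ± 10.3 and 24.0 ± 4.55. The 7 epithelial markers summed to 7.42 to 8.30 and 7.75 to 9.33, the 2 endothelial to 37.3 to 43.0 and 34.4 to 42.3, with miR-126-3p at 40.6 ± 2.62 and 37.9 ± 3.53, and the 5 mesenchymal to 6.91 to 7.35 and 6.41 to 7.76. The 6 striated and cardiac muscle markers summed to 0.385 to 1.92 and 0.316 to 3.06, the liver miRNA miR-122 to 0.0269 to 0.303 and 0.0172 to 0.439, and the 3 neural to 0.0627 to 0.0647 and 0.0617 to 0.0704. The part of cell makeup in the miR-21 values was not tested.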

How the data were processed

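Small-RNA-enriched total RNA was prepared (miRvana) and Cy3-labelled, per the labels' protocols. Spot intensity is the scanner software's (Feature Extraction 10.7.3.1), per the file headers, with background subtracted and arrays not normalized to each other. The log2 value table deposited by the authors was an alternative; how it was made is not given in the sources used. Its correlation with quantile-normalized log2 median spot signals was 0.99985 to 0.99992 per array, its column medians 5.41 to 5.43.

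Control spots and outlier spots (2.25% to 2.76% per array) were left out; 0 spots were saturated. Spots were averaged per probe and probes summed per miRNA (1857 probes, 650 miRNAs). A miRNA was detected where 50% of the kept spots of a probe were well above background. Arrays were scaled to the 75th percentile of the 240 mouse miRNAs detected on all, floored at 0.0388, and 268 detected on at least 4 arrays were fitted with limma 3.58.1 (R 4.3.3), 2-sided, with Benjamini-Hochberg adjustment. The fit was also run on simulated data with independent noise, without the floor or shared slide of these arrays, and no conclusion is drawn from that run. The files lack the mean spot signal, so normexp used the median. RNAfold 2.7.2 folded the hairpin.

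Members and lists were chosen with earlier results of these data known. Other miRNAs were named as the 5 most like miR-21 by each measure, seed relatives, the 3 smallest p of each list, miR-146a, miR-146b, miR-155 and miR-223, and markers. Replicate numbers shared by the groups showed no common pairing of the samples over all tested miRNAs. Array number limits precision.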

Additional observations from a re-analysis of the deposited data

Results flagged for a closer look

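Dixon's 95% limit (on the distance of the most extreme array from its neighbour, as a share of the group's range) was applied to 54 sets of 4 arrays. Chance exceeds it about 1 time in 20, or 2.7 times here, and it was exceeded 2 times. Neither strand of miR-21, none of their probes and not their ratio was involved. miR-199b* was high on Printex 90 replicate 3, with a log2 relative signal of 1.30 where the next array had 1.11 (0.979 of the range). miR-126-3p was low on vehicle control replicate 2, at 5.20 where the next array had 5.38 (0.893 of the range).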

How the results depend on the processing

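The log2 difference of miR-21 was positive under all 22 alternatives run (0.42 without scaling to 0.55, and 0.45 to 0.55 with single arrays left out), each within 1 SE (0.086) of the reported value. That of miR-21* was positive under all 24 (0.41 to 0.63 with single arrays left out), but was 0.011 with the floor doubled, 0.080 in the authors' deposited table, 0.10 with the mean of probe log2 values, 0.11 with the total gene signal on floored values and 0.16 with normexp. Before scaling and without a floor, the total gene signal of miR-21* did not overlap (3.33 to 7.44 units on the controls, 7.59 to 13.0 after Printex 90). The log2 strand ratio (-0.24 to -0.07 with single arrays left out) was 0.48 with the floor doubled, 0.38 with the mean of probe log2 values, 0.38 in the authors' deposited table, 0.36 with normexp and -0.51 with the total gene signal without a floor. The doubled floor and the normexp offset shrink the differences of miR-21*, so the sign of the ratio under them does not decide its direction. The limma count past an adjusted p of 0.05 was 0 in 26 alternatives and 3 without Printex 90 replicate 3 (0 to 3 with single arrays left out; 8 to 30 at an unadjusted p under 0.05). The count with all Printex 90 arrays above all controls was 7 with the percentile over all mouse miRNAs, 6 with quantile normalization, 0 without scaling, 5 with total signal scaling, 14 with normexp and 5 in the authors' table (3 to 8 with single arrays left out). miR-21 was absent from that count without scaling and with quantile normalization, and miR-21* without scaling and with total signal scaling, normexp, the mean of probe log2 values, the floored total gene signal, the authors' table and the filter of detection on all 8 arrays. The median of the inflammation and injury list was 0.18 with the percentile over all mouse miRNAs, 0.052 without scaling and 0.037 (without Printex 90 replicate 3) to 0.16 with single arrays left out; that of the fibrosis list was -0.11 without scaling and -0.09 to -0.01. The count of strand pairs with both strands apart was 0 among those detected on all 8 arrays, which leaves out miR-21. Other than where stated, the cause was not tested. With the replicate block the log2 difference was 0.49 for miR-21 (SE 0.050), 0.54 for miR-21* (SE 0.095) and -0.16 for the ratio (SE 0.086), and the block changed no call. Each SE was smaller than without the block (0.086, 0.16 and 0.14). Same-numbered arrays had correlations of -0.13, -0.38, -0.47 and 0.44 in their deviations over all tested miRNAs, so the numbers, which are also slide columns, show no common pairing there. Whether the slide column adds to the values of the miR-21 strands was not tested. The negative control, 2-probe and no-floor alternatives were chosen after seeing the data. Signal over background limits miR-21*, not miR-21.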
